A study of Mus musculus with 2 samples.

Results

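The miR-30 family of microRNA (miRNA) genes was examined in the hippocampus of juvenile mice. Its 7 members, out of 2202 annotated miRNA genes, were chosen by name in GENCODE M21: Mir30a, Mir30b, Mir30c-1, Mir30c-2, Mir30d, Mir30e and Mir30f. They lie at 3 loci. The data are 2 small RNA libraries of total RNA from 1 group, male B6CASTF1/J mice (F1 mice of a cross between C57BL/6J and CAST/EiJ) aged 25 days, with no treatment named and the tissue labelled as a layer of the hippocampus. The libraries are biological replicates 1 and 2 with separate biosamples but 1 shared donor entry, and whether they came from separate animals is not stated, so the SDs given may reflect technical spread. No contrast between conditions exists, and the comparisons are among the members, among the loci and between the 2 libraries.

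A miRNA gene is transcribed as a hairpin that Drosha and Dicer cut into short arms, and the arm loaded into an Argonaute protein pairs with messenger RNAs through its seed, bases 2 to 8. The miR-30 genes are ancient in vertebrates, stand mostly as pairs, and are broadly expressed in neural and epithelial tissue. Known targets of the family include the autophagy gene Becn1 and, for miR-30a-5p, the neurotrophin gene Bdnf.

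The mature sequences show what the members with a known sequence share and which of their reads can be told apart. The RefSeq table (GRCm38.p6, the assembly of mm10) held 5 of the 7 members, matched by symbol. It lacked Mir30b and Mir30d, so the sequences of these genes were not compared. Seeds are in capitals and sequences run 5′ to 3′.
miR-30a-5p: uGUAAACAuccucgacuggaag
miR-30e-5p: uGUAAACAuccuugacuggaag
miR-30c-5p: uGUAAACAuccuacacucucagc
miR-384-5p: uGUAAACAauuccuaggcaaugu
miR-30f: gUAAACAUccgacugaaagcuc
The first 12 bases were identical in miR-30a-5p, miR-30c-5p and miR-30e-5p. This stretch was found in 4 of 1005 hairpins of the table, those of Mir30a, Mir30c-1, Mir30c-2 and Mir30e. These are the only members with a hairpin in the table, so the count says nothing of Mir30b and Mir30d. Counted from 1 at the 5′ end, miR-30a-5p and miR-30e-5p differed by the single substitution C13U, with the base of miR-30a-5p first. Of 22 bases compared, miR-30c-5p differed from either of them at 5. Mir30c-1 and Mir30c-2 carry the same miR-30c-5p. The seed GUAAACA occurred in 4 of 1674 distinct mature sequences of the table, which has none for Mir30b and Mir30d. The only gene outside the family with this seed in the table was Mir384. It is an X-linked gene whose 5p arm is known for a role in hippocampal long-term potentiation.

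The 3p arms divide the members differently, and are shown because they could separate the copies of miR-30c.
miR-30a-3p: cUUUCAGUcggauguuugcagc
miR-30e-3p: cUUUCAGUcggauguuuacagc
miR-30c-1-3p: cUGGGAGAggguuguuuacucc
miR-30c-2-3p: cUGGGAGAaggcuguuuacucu
The 3p arms of Mir30a and Mir30e shared 1 seed and differed only by G18A. Those of Mir30c-1 and Mir30c-2 shared another seed and differed at 3 of 22 bases, by G9A, U12C and C22U. The hairpins of Mir30c-1 and Mir30c-2 had 28 bases in common, shown with the 5p arm in capitals.
Mir30c shared stretch: UGUAAACAUCCUACACUCUCAGCuguga
A miR-30c-5p read that ends within the 5 bases after the arm is therefore the same from both genes, whereas a 3p read is not. Reads aligned to several places were kept out of the gene counts by the authors. They made up 43.6% of reads in replicate 1 and 43.2% in replicate 2, and how many came from miR-30c is not recorded. The deposited counts of Mir30c-1 and Mir30c-2 are thus uncertain and may lack miR-30c-5p reads. The longest stretch shared by the hairpins of Mir30a and Mir30e was 18 bases. The counts are per gene and do not tell the arms apart.

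In mm10, Mir30a (ENSMUSG00000065405.3) lies on the plus strand of chromosome 1 at chr1:23272269-23272339, outside any same-strand host gene. Mir30c-2 (ENSMUSG00000065567.1) lies 19361 bases further on at chr1:23291701-23291784, in an exon of the long noncoding gene Gm27028. Mir30b (ENSMUSG00000065476.2, chr15:68337415-68337510, without a host) and Mir30d (ENSMUSG00000065437.1, chr15:68341208-68341289, in an exon of the long noncoding gene Gm20732) are on the minus strand of chromosome 15, 3697 bases apart. Mir30c-1 (ENSMUSG00000065490.1, chr4:120769534-120769622) and Mir30e (ENSMUSG00000065409.1, chr4:120772606-120772697) are on the minus strand of chromosome 4, 2983 bases apart. Both are intronic in Nfyc, which encodes a subunit of the CCAAT-binding factor NF-Y. Mir30f (ENSMUSG00000105585.1) has the same coordinates as Mir30e on the plus strand. No other miRNA gene lay within 10 kb of a member.

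Replicate 1 held 5183641 counts on the strand of a miRNA gene and replicate 2 held 5871233, which were 37.3% and 36.7% of all reads. Levels are given as counts per 1000000 of these gene-assigned counts (CPM). Of 15 neuron-enriched miRNA genes 12 were detected, and the list took 3.69% and 4.02% of counts in replicates 1 and 2. Mir124a-2, Mir124a-3 and Mir9-2 were below 10 counts in at least 1 library. The Mir124a and Mir9 genes are numbered copies, and reads that align to several copies are left out of the gene counts. Their levels and the neuron share may therefore be too low. Muscle and liver genes took 0.00972% and 0.0178%, with 2 of 6 detected. The genes not detected were Mir1a-1, Mir1a-2, Mir133a-1 and Mir133a-2, also numbered copies, so this share may be too low for the same reason. Markers of oligodendrocytes took 0.525% and 0.667%, of vessels 0.931% and 0.879%, of leukocytes 0.124% and 0.0992%, of red blood cells 0.00419% and 0.00569%, and of choroid plexus 0.0661% and 0.0560%. In bulk tissue, fewer cells of a type and less of a miRNA per cell cannot be told apart.

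The family took 1.42% ± 0.0547 of gene-assigned counts (SD, n = 2). It held 71854 counts in replicate 1, or 1.39% (95% interval by the exact method, 1.38 to 1.40), and 85926 in replicate 2, or 1.46% (1.45 to 1.47). The intervals, like all those below, are Clopper-Pearson intervals and cover counting error only, since no molecular identifiers are mentioned. Of the 7 members 6 had 10 counts or more in each library, called detected here, against 20.2% of all 2202 genes. Mir30d, Mir30a and Mir30e passed 1000 CPM in both libraries, which 4.36% of all genes did.

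Mir30d was the most abundant member, at 7208 CPM in replicate 1 and 9154 CPM in replicate 2 (mean 8181 ± 1376, SD, n = 2). It ranked 26 of all genes by mean level. Mir30a followed at 3656 and 3310 CPM (3483 ± 245), rank 47. Its level lay below that of Mir30d in both libraries, and the gap was 4698 ± 1621 CPM (SD, n = 2). Mir30e had 2599 and 1696 CPM (2148 ± 639), rank 67, and was below Mir30a in both libraries, with a gap of 1335 ± 394 CPM.

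A gap separated these 3 genes from the rest, with Mir30e 13.8-fold above the next member in replicate 1 and 6.92-fold above it in replicate 2. That next member was Mir30c-2, at 189 and 245 CPM (217 ± 39.8). Mir30c-1, the other source of miR-30c-5p, had 115 and 147 CPM (131 ± 22.9). The levels of both genes may be too low, since miR-30c-5p reads that align to both are left out. Mir30c-2 was above Mir30c-1 by a similar factor in both libraries, 1.65-fold in replicate 1 and 1.67-fold in replicate 2. Mir30b was the lowest member with counts, at 94.3 and 83.6 CPM (89.0 ± 7.57), and Mir30c-1 exceeded it by 42.0 ± 30.5 CPM. Mir30f had 0 counts in both libraries, which allows a level of up to 0.579 CPM in replicate 1 and 0.511 CPM in replicate 2.

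The order Mir30d, Mir30a, Mir30e, Mir30c-2, Mir30c-1, Mir30b, Mir30f was the same in both libraries, and no counting intervals of neighbours overlapped. The closest neighbours in replicate 1 were Mir30c-1 and Mir30b, 1.22-fold apart. The annotated genes differ in length from 71 to 96 bases, and the order was also the same per 100 annotated bases, a check added after seeing the data. Mir384, which shares the seed, had 156 and 175 CPM (166 ± 13.3), between Mir30c-2 and Mir30c-1 in both libraries.

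**Figure D1:**
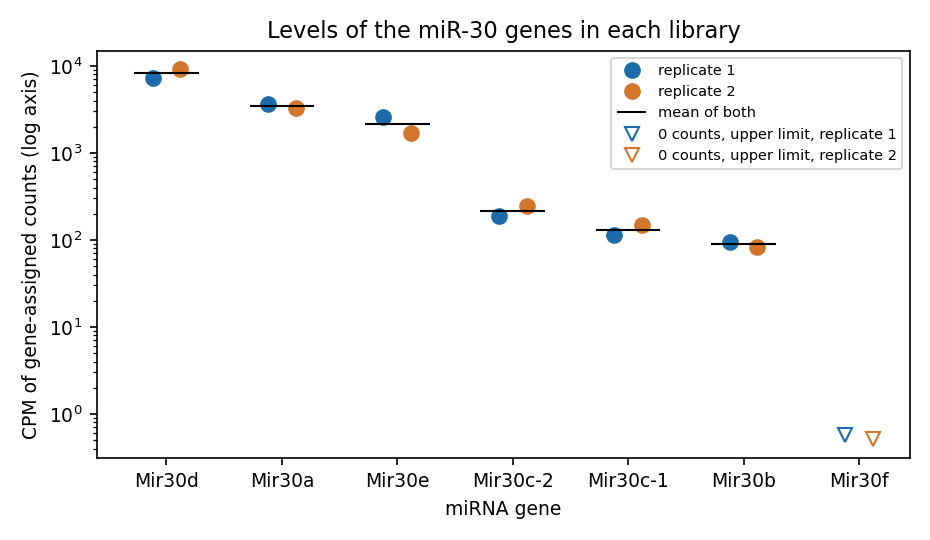
CPM of each miR-30 gene (log axis) in replicate 1 (blue) and replicate 2 (orange), with the mean as a line and open triangles for the upper limit that 0 counts allow. Mir30d, Mir30a and Mir30e lie above 1000 CPM, Mir30c-2, Mir30c-1 and Mir30b between 83.6 and 245 CPM, and Mir30f has no counts.

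By these counts each locus paired an abundant gene with a scarce one. The chromosome 15 pair, Mir30b with Mir30d, supplied 52.7% of the family's counts in replicate 1 and 63.1% in replicate 2 (mean 57.9% ± 7.38, SD, n = 2). The chromosome 1 pair, Mir30a with Mir30c-2, supplied 27.7% and 24.3% (26.0% ± 2.44). The Nfyc locus, Mir30c-1 with Mir30e, supplied 19.6% and 12.6% (16.1% ± 4.94). The order of the loci was the same in both libraries. Mir30d, Mir30a and Mir30e together held 97.1% and 96.7% of the counts of the family. Mir30d alone held 52.0% and 62.5%. Mir30a held 26.4% and 22.6%, and Mir30e 18.8% and 11.6%. The counts leave out miR-30c-5p reads that align to both copies. Mir30c-1 and Mir30c-2 may thus be less scarce than counted. The shares of genes and loci and the order of the loci are uncertain for this reason.

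**Figure D2:**
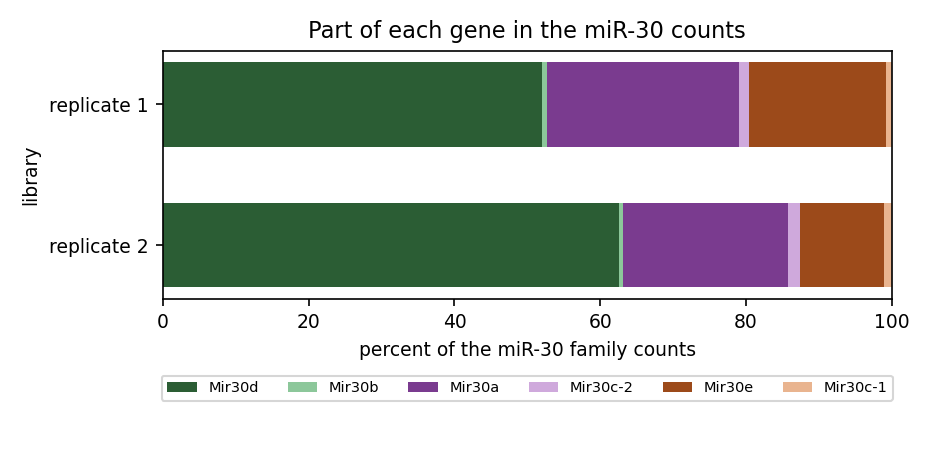
Percent of the miR-30 counts from each gene in replicates 1 and 2, stacked to 100, with the genes of 1 locus in shades of 1 colour. Mir30d holds 52.0% of the bar in replicate 1 and 62.5% in replicate 2, while Mir30e holds 18.8% and 11.6%.

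Ratios between the partners of a locus are taken within a library and do not depend on its scaling. Mir30d exceeded Mir30b 76.4-fold in replicate 1 and 109-fold in replicate 2, a mean log2 ratio of 6.51 ± 0.37 (SD, n = 2). Mir30a exceeded Mir30c-2 19.4-fold and 13.5-fold (log2 4.02 ± 0.37). Mir30e exceeded Mir30c-1 22.6-fold and 11.5-fold (log2 4.01 ± 0.69). The mean ratios of the last 2 pairs differed by less than their SDs, and that of the chromosome 15 pair was higher in each library. Because reads of miR-30c-5p that align to both copies are left out, the ratios over Mir30c-1 and Mir30c-2 may be too high. The sequences of Mir30b and Mir30d were not compared, so a loss of their reads in this way was not checked.

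The part of the scarce partner moved between the libraries by more than counting error at all 3 loci. Mir30c-2 was 4.91% of its pair's counts in replicate 1 (interval from 4.62 to 5.22), and 6.89% in replicate 2 (6.55 to 7.25). Mir30c-1 was 4.23% (3.90 to 4.57) and 7.99% (7.48 to 8.51). Mir30b went the other way, at 1.29% (1.18 to 1.41) and 0.905% (0.827 to 0.989). Both scarce genes with miR-30c-5p thus made up more of their pair in replicate 2, at separate loci.

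**Figure D3:**
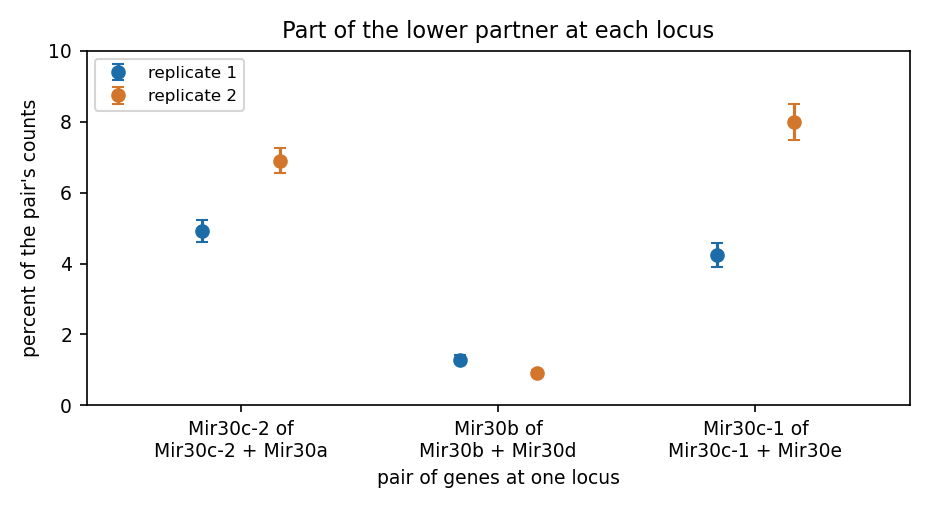
Percent of a pair's counts that came from its scarcer gene, in replicate 1 (blue) and replicate 2 (orange), with exact 95% intervals as bars. The points for Mir30c-2 and Mir30c-1 are higher in replicate 2, at 6.89% and 7.99%, and that for Mir30b is lower, at 0.905%.

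Mir30f and Mir30e show how strand enters the counts. The mature miR-30f is annotated over miR-30e-3p on the opposite strand, and is its reverse complement over 19 bases, while its stretch guaaacaucc equals bases 2 to 11 of miR-30e-5p, so its own seed, UAAACAU, is shifted by 1 base. On its own strand Mir30f had 0 counts. Its opposite-strand column held 13474 counts in replicate 1 and 9956 in replicate 2, exactly the counts of Mir30e on the strand of Mir30e. In the column that ignores strand both genes were at 0, since a read over both is ambiguous there. The counts of Mir30e were 4.45% and 2.57% of all ambiguous reads in that column. The other 5 members had 0 opposite-strand counts and the same value with and without regard to strand.

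Of the 6 members that averaged 10 counts or more, 5 gave different levels in replicates 1 and 2 beyond sampling noise (2-sided exact binomial test, Benjamini-Hochberg adjusted p below 0.05 over 472 genes), against 59.7% of all genes tested. Among genes averaging 100 counts or more, as these 6 members did, 242 of 291 were called. The test compares 2 libraries and leaves out the spread between samples. Higher in replicate 2 were 3 members, against 39.4% of all genes, and 2 were higher in replicate 1, against 20.3%. Over all genes the calls split into 186 upward (toward replicate 2) and 96 downward, a split that became 141 and 137 with TMM scaling (trimmed mean of M-values) and 132 and 142 with DESeq2 size factors, while the members stood at 3 and 3 with either. With so few members these shares say nothing particular about the family. The median log2 ratio of replicate 2 over replicate 1 was 0.10 over the 6 members and 0.18 over all genes tested, and the median absolute log2 ratios were 0.35 and 0.38.

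The widest difference was that of Mir30e, with a 1.53-fold higher level in replicate 1 (counting interval 1.49 to 1.57). It was the only member past 1.5-fold, and 29.7% of all genes tested had a larger absolute log2 ratio. Mir30a was also higher in replicate 1, 1.10-fold (1.08 to 1.13). Higher in replicate 2 were Mir30c-2 by 1.30-fold (1.20 to 1.41), Mir30c-1 by 1.28-fold (1.15 to 1.43) and Mir30d by 1.27-fold (1.25 to 1.29). Mir30b had a fold of replicate 2 over replicate 1 of 0.886 (0.781 to 1.01) and did not pass the test (exact binomial test, adjusted p = 0.101), but it passed with TMM scaling, which shifts every log2 ratio by -0.17, at an adjusted p of 0.000444, and with DESeq2 size factors, which shift them by -0.18, at 0.000268. With those scalings the other 5 kept their directions and their calls. No member differed 2-fold, which 75 of the 472 genes tested did.

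Every locus held 1 member with a log2 ratio above 0 and 1 below it. On chromosome 1 the log2 ratios were -0.14 for Mir30a and 0.38 for Mir30c-2. On chromosome 4 they were -0.62 for Mir30e and 0.36 for Mir30c-1, and on chromosome 15 they were 0.34 for Mir30d and -0.17 for Mir30b. The shares of neuron, oligodendrocyte, red blood cell, and muscle and liver genes were higher in replicate 2, and vessel, leukocyte and choroid plexus shares were lower (values above). The neuron and vessel genes did not move together. From replicate 1 to replicate 2, Mir132 of the neuron list rose from 14669 to 19562 CPM, while Mir138-1 fell from 6700 to 5012 CPM. Of the vessel list, Mir126a rose from 5300 to 5849 CPM and Mir143 fell from 3534 to 2801 CPM. These 2 shares therefore do not describe every gene of their lists. The part of the marker shares in the differences between the libraries was not tested.

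**Figure D4:**
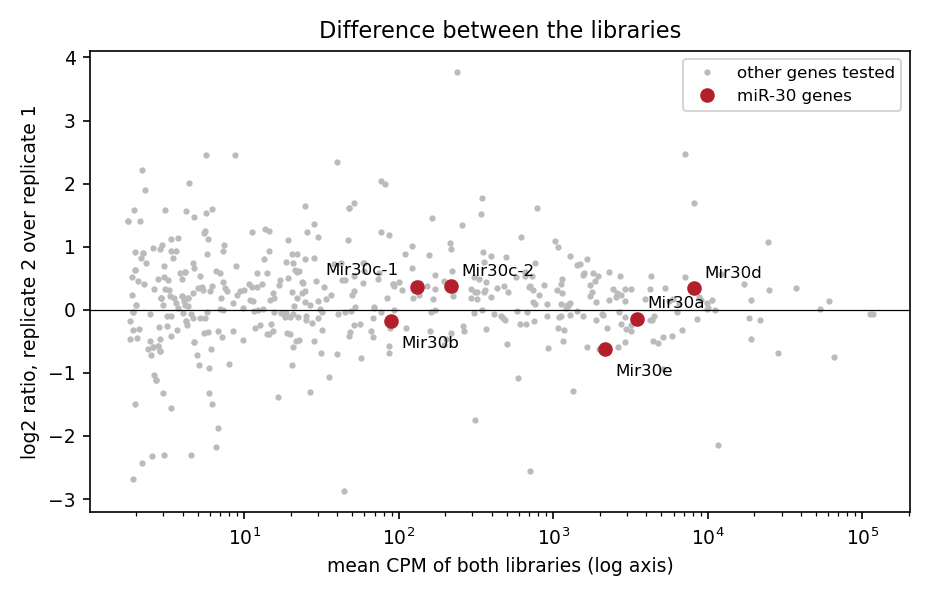
Log2 ratio of replicate 2 over replicate 1 against mean CPM (log axis) for the 472 genes tested, with the 6 miR-30 genes in red and the others in grey. Mir30e is the lowest of the miR-30 genes at -0.62, and Mir30c-2, Mir30c-1 and Mir30d lie at 0.38, 0.36 and 0.34.

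The family's size and makeup were set beside those of other families with genes at several loci. The let-7 family took 28.5% ± 1.84 of counts (SD, n = 2), the miR-181 family 0.625% ± 0.0278 and the miR-29 family 0.439% ± 0.0432, and the miR-30 share lay between those of let-7 and miR-181 in both libraries. The leading gene held 57.3% ± 7.46 of the miR-30 counts, compared with 39.7% ± 3.79 for Mirlet7b in let-7, 33.4% ± 2.83 for Mir181b-2 in miR-181 and 89.8% ± 1.33 for Mir29a in miR-29. Mir30d was below Mirlet7b (112671 ± 3489 CPM), Mirlet7g (60490 ± 4321 CPM) and Mirlet7i (53434 ± 111 CPM), and above Mir29a (3939 ± 329 CPM) and Mir181b-2 (2088 ± 83.9 CPM) in both libraries. Reads aligned to several places are missing from all 4 families, so the order of the shares is uncertain. Which gene leads a family and the part it holds are uncertain for the same reason.

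Of genes outside the family, the one nearest to Mir30d by Euclidean distance on log2(CPM + 1) over the 2 libraries was Mir125a, at 7303 and 9380 CPM and a distance of 0.04. Mir30a was nearest to Mir107 (0.19), Mir30e to Mir370 (0.17), Mir30c-2 to Mir496a (0.10), Mir30c-1 to Mir325 (0.06) and Mir30b to Mir574 (0.10). With 2 libraries this measures likeness of level and of 1 difference only.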

How the data were processed

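MicroRNA sequencing of total RNA (size range below 30 bases, per the labels) was used from 2 libraries. Raw counts for each miRNA gene were deposited by the authors, and mm10 and GENCODE M21 are named in the accompanying text files. The aligner and counter were not given in the sources used here. Every file has 3 count columns (no strand, strand of the gene, other strand) and 4 rows without a gene, which were left out of library sizes. In the column on the strand of the gene, which was used, unmapped reads were 14.1% of the reads in replicate 1 and 15.5% in replicate 2, those aligned to several places 43.6% and 43.2%, those on no feature 5.04% and 4.59%, and none were ambiguous. All 2202 identifiers matched M21.

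CPM used the gene-assigned total. The replicates were compared with the exact binomial test (scipy 1.17.1) on genes averaging 10 counts or more. The test was also run on simulated data in which read sampling was the only noise, as the test assumes. That run cannot show how the test behaves with real spread between samples. A quasi-likelihood test has no coefficient with 1 group. TMM factors came from edgeR 4.0.16 and size factors from DESeq2 1.42.0 (R 4.3.3). A count of 0 was taken to allow up to 3 counts, a limit separate from the exact intervals. A host gene contains the miRNA on its strand, choosing protein-coding hosts first and the shorter one next. Sequences are from RefSeq.

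The members and lists were chosen with earlier results of these data known. Named are all members, the nearest other gene to each detected member, leading genes of 3 other families, and miRNA genes within 10 kb. Mir384 was named after its values were seen. Alternatives covered strand, scaling, count minimum, pseudocount, the total, the miR-30c genes and each library alone.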

Additional observations from a re-analysis of the deposited data

Results flagged for a closer look

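The opposite-strand column of Mir30f was not used as a level of Mir30f. It carried 13474 counts in replicate 1 and 9956 in replicate 2. They equal the counts of Mir30e on its own strand, which gave the level of Mir30e, and are not signal of Mir30f. Mir30f itself had 0 counts in both libraries.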

How the results depend on the processing

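The family share was 1.42% and was 1.29% in the column that ignores strand, where Mir30e drops out as ambiguous, 0.656% with reads aligned to several places added to the total, and 3.14% without the 10 most abundant other genes, the last 2 by the change of the total. Without strand the locus shares were 30.8% for Mir30a with Mir30c-2, 68.1% for Mir30b with Mir30d and 1.08% for Mir30c-1 with Mir30e, and 3 of 7 members stood at the same place in the order. Of the 5 members that differed between the libraries, 0 were at least 2-fold apart, against 66 of all genes that passed the test. With TMM or DESeq2 scaling 6 members differed, at a minimum mean count of 1 or 100 there were 5, and without strand 4, since Mir30e was not tested. Over all genes, 288 of 743 passed at the minimum of 1 and 242 of 291 at 100. Leaving out each replicate moved the family share from 1.39% to 1.46%, the locus shares from 24.3% to 27.7%, 52.7% to 63.1% and 12.6% to 19.6%, and the partner log2 ratios from 3.76 to 4.27 for Mir30a over Mir30c-2, 6.26 to 6.77 for Mir30d over Mir30b and 3.53 to 4.50 for Mir30e over Mir30c-1. At this depth a level of Mir30f under the upper limit of a count of 0 was not detectable. Reads aligned to several places limit Mir30c-1 and Mir30c-2, and whether they also limit Mir30b and Mir30d was not checked. No paired analysis was possible because there is 1 group.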
